A study of Rattus norvegicus with 6 samples.

Results

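Of 8740 probe sets on rat liver arrays, 61 (0.698%) had a signal in a single array, NASH 2, at least 2 log2 units, or 4-fold, above the signal in each of the other 5 arrays. These 61 probe sets were chosen by that rule from the measured values, so their height in NASH 2 is a description and carries no test. A total of 46 carried 1 gene symbol each and named 39 genes, 3 carried several symbols and 12 are unnamed here. They were mainly genes of brown fat, of fat cells in general and of skeletal muscle. Of the 61, 14 belonged to lists of fat genes and 23 to lists of skeletal muscle genes. Genes that both tissues share were counted on 1 side only, for example Cox8b, Fabp3 and Cpt1b with the fat genes and Hk2 with the muscle genes. The counts therefore do not separate the tissues. The rest held connective tissue, immunoglobulin and other genes and the unnamed probe sets.

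Brown fat is a heat-producing tissue. Its fat cells are rich in mitochondria and carry uncoupling protein 1 (Ucp1), which lets protons return across the inner mitochondrial membrane without making ATP. Skeletal muscle fibres are built from sarcomeres, in which myosin pulls on actin under the control of troponin and calcium, and they draw on creatine phosphate, glycogen and fatty acids for energy. Hepatocytes are not known for the defining proteins of either tissue, and use other isoforms of many metabolic enzymes.

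The samples were total RNA of male Sprague Dawley rats on liquid diets given by total enteral nutrition for 3 weeks, 1 array per sample and 3 per diet. Control rats (Control 1 to 3) received 5% corn oil, and NASH rats (NASH 1 to 3, for nonalcoholic steatohepatitis) received 70% corn oil. Daily energy per unit of metabolic body mass, a power of body mass in kg, was 187 kcal in Control and 220 kcal in NASH. Fat content and energy therefore differed together, and the age of the rats is not given in the sources used here. Every instrument record gave liver as the sample type and RG_U34A (Rat Genome U34A) as the array. The labels do not say whether each sample is a separate animal, so the p-values cover the spread among these samples alone, which may be technical.

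NASH 2 stood apart in these 61 probe sets and was also raised in some lists beyond them, described below. Over all probe sets it remained close to the other liver arrays. Its correlation with the other arrays over all log2 signals was 0.930 to 0.953, against 0.936 to 0.970 among the other 5. With the 61 probe sets left out it was 0.940 to 0.963, and the range among the other 5 was not recomputed. Hepatocyte genes summed to a normalized signal of 148051 in NASH 2, the lowest sum, against 153931 to 161611 in Control and 149348 to 152341 in NASH 1 and NASH 3. The chip lot field of the instrument records held the same entry for all 6 arrays, and whether that entry was blank was not checked. The scan record of NASH 2 gave 1 scan and no scanner type, where those of the other 5 gave 2 scans and the same scanner type, and its part in the result was not tested. In bulk tissue RNA, more cells of a type and more RNA per cell cannot be told apart.

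**Figure D1:**
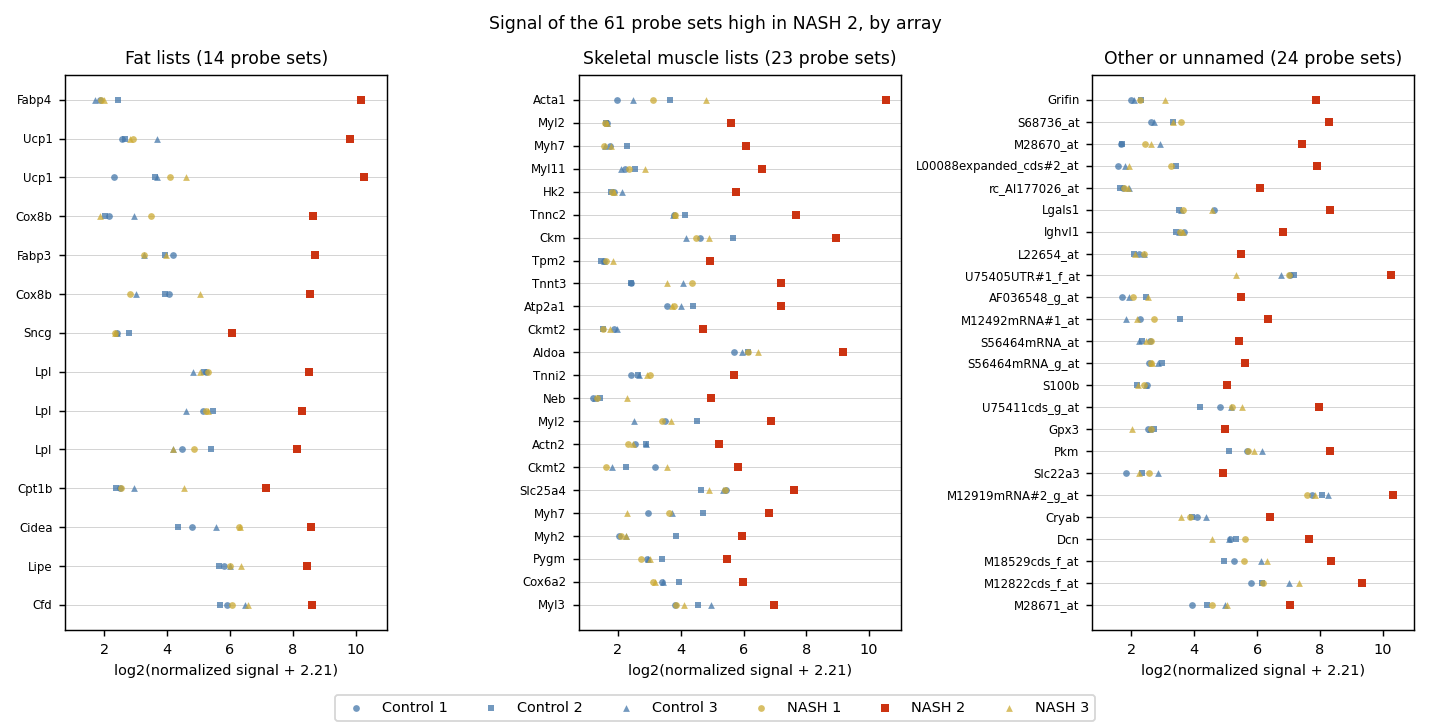
Signal of each of the 61 probe sets (rows, labelled by gene symbol or by probe set where there is none or several) in the 6 arrays, on a log2 axis of the normalized signal plus 2.21. NASH 2 (red) lies at least 2 units to the right of every other array in each row, by the rule, and 11 rows are separated by 4 units or more.

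In the plot of signals by array, the distance between NASH 2 and the next array ran from 2.01 to 7.72 log2 units, with a median of 2.78. It was 4 or more for 11 probe sets and under 2.5 for 22. The median normalized signal of the 61 was 144 in NASH 2, against medians of 4.002, 9.10 and 5.62 in Control 1, 2 and 3, and of 7.40 in NASH 1 and 9.52 in NASH 3. For 44 of them the mean of the other 5 arrays lay below that of the median probe set on the array. Others were well measured outside NASH 2, such as Aldoa at 49.4 to 85.0. For dim probe sets the added offset makes fold changes too small.

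Among brown fat genes, Ucp1 had the widest separation. Ucp1, the heat-producing uncoupling protein, was measured by 2 probe sets, and both were among the 61. With A04674cds_s_at its normalized signal was 899 in NASH 2, and 3.71, 4.08 and 10.7 in Control 1 to 3, 5.30 in NASH 1 and 4.81 in NASH 3. With X03894_at the signal was 1241 in NASH 2, and 2.72, 10.2 and 10.5 in Control 1 to 3, 15.0 in NASH 1 and 21.9 in NASH 3. NASH 2 was 69.7-fold above the next array with the first probe set and 51.6-fold with the second, on the scale of signal plus offset. The other 5 arrays overlapped closely with the first probe set and were spread more widely with the second.

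Cox8b, the isoform of cytochrome c oxidase subunit 8 found in brown fat, heart and skeletal muscle, reached 401 in NASH 2 with X64827cds_s_at, against 1.46 to 8.88 elsewhere. Its other probe set, U40836mRNA_s_at, gave 376 in NASH 2, and 14.6, 12.9 and 5.82 in Control, 4.82 in NASH 1 and 31.1 in NASH 3. Fabp3, a fatty acid binding protein of muscle and brown fat, gave 417 in NASH 2, and 16.03, 12.97 and 7.37 in Control, 7.40 in NASH 1 and 13.4 in NASH 3. Fabp3 and Cox8b are shared by both tissues, so that these values belong to neither alone. Cpt1b is the muscle and brown fat form of the enzyme that admits long-chain fatty acids to mitochondria. With D43623_g_at it gave 139 in NASH 2, 21.1 in NASH 3 and 2.93 to 5.52 in the other 4 arrays. Across its probe sets, NASH 2 lay 1.14 to 4.16 log2 units above the mean of the other arrays, with D43623_g_at the highest.

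Cidea is a lipid droplet protein that was counted with the brown fat genes. In each of the other 5 arrays it was brighter than either Ucp1 probe set. Whether its signal came from brown fat was not tested. Its signal was 380 in NASH 2, 76.7 in NASH 1, 77.8 in NASH 3, and 25.5, 18 and 44.8 in Control 1 to 3. NASH 1 and NASH 3 both lay above all 3 Control arrays, as they did for 10.2% of all probe sets. For NASH 2 this order follows from the rule. Of the 23 probe sets for 15 measured brown adipocyte genes, 7 were among the 61, or 30.4% against 0.698% of all probe sets. The 7 include Cox8b, Fabp3 and Cpt1b, which skeletal muscle shares, so the share does not stand for brown fat alone. The median of the list in NASH 2 lay 1.45 log2 units above the mean of the other 5 arrays, where all probe sets had a median of -0.032. The list was drawn up with earlier results of these data known.

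Other brown fat genes fell short of the rule. Ucp3, an uncoupling protein of muscle and brown fat, gave 47.8 in NASH 2 against 5.13 to 10.8 elsewhere with AF030163_s_at, just under the threshold. The fatty acid transporter Slc27a1 gave 212 against 77.0 to 97.6, and Gpd2, the mitochondrial glycerol phosphate dehydrogenase, gave 42.8 against 8.81 to 20.3 with X78593_g_at but 49.9 against 47.1 to 111.4 with U83879_at. Esrra, a nuclear receptor that drives mitochondrial genes, gave 39.5 against 22.7 to 61.1 with its brighter probe set. Dio2, the deiodinase that activates thyroid hormone in brown fat, was named after its value was seen and gave 5.76 in NASH 2 against 0.913 to 9.37. The adrenergic receptor Adrb3 gave 67.4 in NASH 2 against 38.6 to 54.2.

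Genes shared by white and brown fat cells followed. Fabp4, the fatty acid binding protein of fat cells, had the widest separation of all. Its normalized signal was 1141 in NASH 2, and 1.46, 3.22 and 1.08 in Control 1 to 3, 1.51 in NASH 1 and 1.76 in NASH 3. NASH 2 was 211-fold above the next array, and the other 5 all sat at the floor.

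Lpl, the lipase that frees fatty acids from circulating lipoproteins, was high in NASH 2 with all of its 3 probe sets. With L03294_at it gave 368 in NASH 2, and 35.3, 34.3 and 25.9 in Control, 37.0 in NASH 1 and 31.0 in NASH 3. The other Lpl probe sets gave 309 and 280 in NASH 2. Lipe, hormone-sensitive lipase, gave 348 in NASH 2, 53.4, 47.8 and 61.3 in the Control arrays, 62.0 in NASH 1 and 79.8 in NASH 3. Cfd, the adipokine complement factor D, gave 392 in NASH 2, 58.1, 49.6 and 87.4 in the Control arrays, 65.0 in NASH 1 and 94.2 in NASH 3. Sncg, a synuclein made by fat cells and nerve, gave 65.3 in NASH 2 and 2.88 to 4.63 elsewhere.

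Of 33 probe sets for 21 measured genes of this list, 7 were among the 61 and 18 had their highest signal in NASH 2. The share with the highest signal in NASH 2 was 54.5%, against 15.6% of all probe sets. Aqp7, the glycerol channel of fat cells, stood just outside the threshold at 123.9 in NASH 2 against 20.5 to 30.2. Plin1, the coat protein of fat cell lipid droplets, gave 9.91 against 1.31 to 2.29, and the fat cell regulator Pparg gave 35.3 against 1.65 to 18.7, both named after their values were seen. Among the brightest other genes of the list, carbonic anhydrase 3 (Car3) gave 337 against 255 to 983, Fabp5 gave 82.4 against 31.1 to 369 and the glycerol phosphate dehydrogenase Gpd1 gave 175.5 against 42.1 to 168. Leptin (Lep), a hormone mainly of white fat, was not raised in the same way. Its brightest probe set gave 378 in NASH 2 against 244 to 307, and its other probe sets gave 8.48 and 11.5, inside the ranges of the other arrays.

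Skeletal muscle structure genes included the brightest probe set of the 61. Acta1, the actin of skeletal muscle thin filaments, gave a normalized signal of 1488 in NASH 2, and 1.73, 10.3 and 3.40 in Control 1 to 3, 6.503 in NASH 1 and 25.9 in NASH 3. NASH 2 was 53.0-fold above NASH 3, the next array. Actn2, an actinin of the Z disc, gave 35.0 in NASH 2 against 2.82 to 5.29, and tropomyosin Tpm2 gave 28.3 against 0.533 to 1.37. Neb, nebulin, which spans the thin filament, gave 29.3 against 0.119 to 2.66. Only 4 of the 41 probe sets of this list were among the 61, and its median lay 0.27 above the mean of the other arrays. Of the brightest others, the caveolin Cav3 gave 29.8 in NASH 2 against 33.9 to 70.8 and the tropomyosins Tpm3 390.3 against 258 to 339 and Tpm1 303 against 157 to 362, each with its brightest probe set. Titin (Ttn), at 1.58 in NASH 2, Tcap, at 3.05, and desmin (Des), at 8.31, were named after their values were seen and were all near the floor of the array.

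The 250 bases before the RefSeq start of Ucp1, Cox8b, Acta1 and Ckm are printed as examples. They run 5′ to 3′ on the gene's strand and come from build GRCr8. Ucp1 and Cox8b were counted with the fat genes, though skeletal muscle shares Cox8b, and Acta1 and Ckm with the muscle genes. The choice followed no stated rule, and these promoters should not be taken as typical. Capitals mark the letters TATAAA (the TATA box), CAGCTG (an E-box that binds MyoD-type muscle factors) and the CArG box (a serum response factor motif). All were searched on both strands, and a match that overlaps another is counted for each motif. Other promoters of the fat and muscle lists, such as those of Cidea, Fabp3, Neb and Tnnc2, held none of these motifs. Ucp1 is at chr19:41721422-41721671, minus strand, Cox8b at chr1:205408274-205408523, minus strand, Acta1 at chr19:68784195-68784444, minus strand and Ckm at chr1:88189211-88189460, plus strand.
Ucp1: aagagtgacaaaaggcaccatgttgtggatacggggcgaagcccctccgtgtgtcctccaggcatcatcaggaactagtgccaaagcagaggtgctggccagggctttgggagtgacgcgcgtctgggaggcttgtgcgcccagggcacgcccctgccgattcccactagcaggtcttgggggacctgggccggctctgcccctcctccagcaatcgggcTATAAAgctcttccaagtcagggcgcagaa
Cox8b: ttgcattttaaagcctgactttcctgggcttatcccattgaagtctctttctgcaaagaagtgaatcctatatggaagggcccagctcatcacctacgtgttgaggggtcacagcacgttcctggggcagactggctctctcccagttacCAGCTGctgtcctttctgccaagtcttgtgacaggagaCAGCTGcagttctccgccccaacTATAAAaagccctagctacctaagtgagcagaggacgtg
Acta1: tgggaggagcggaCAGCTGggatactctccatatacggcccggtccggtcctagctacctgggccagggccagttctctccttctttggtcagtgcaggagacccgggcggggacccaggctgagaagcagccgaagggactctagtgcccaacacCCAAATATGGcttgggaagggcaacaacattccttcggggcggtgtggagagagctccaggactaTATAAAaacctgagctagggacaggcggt
Ckm: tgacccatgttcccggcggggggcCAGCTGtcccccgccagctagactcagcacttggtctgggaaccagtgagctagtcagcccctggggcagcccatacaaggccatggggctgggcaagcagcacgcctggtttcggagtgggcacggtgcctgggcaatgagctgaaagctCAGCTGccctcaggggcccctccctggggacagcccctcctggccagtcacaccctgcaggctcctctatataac

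The RefSeq promoter table used here matched 29 of the 39 named genes, and Fabp4, Lpl, Lipe and Cpt1b were among those not matched. CAGCTG occurred in 8 of 20 promoters of 18 skeletal muscle genes (40%), in 1 of 6 promoters of fat genes, and in 12.0% of all 33469 promoters of that length. The 1 of the 6 was that of Cox8b, which skeletal muscle shares. The CArG box occurred in 2 of the 20 muscle promoters (Acta1 and Myl3) and 1.497% of all. Of the 20, 3 belong to Aldoa, whose alternative starts lie close together. AGGTCA, the half-site of many nuclear receptors, occurred in 3 of the 20 muscle promoters (15%), 0 of the 6 fat promoters and 14.1% of all. With only 6 fat promoters, the 0 shows no depletion. The site named for MEF2, a muscle transcription factor, occurred in 2 of the 20 and 2.96% of all, and TATAAA in 3 of the 20, in 2 of the 6 and in 12.9% of all. These are counts of letters in a short window and no evidence of binding.

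Contractile genes of both fast and slow fibres were among the 61. Of the fast fibre list, 6 of 13 probe sets for 12 genes were among the 61 (46.2%), with a list median 2.15 above the mean of the other arrays. Tnnc2, the calcium sensor of fast troponin, gave 199.7 in NASH 2, and 11.5, 15.3 and 11.3 in Control, 12.0 in NASH 1 and 11.9 in NASH 3. Tnnt3, fast troponin T, gave 144 in NASH 2 and was uneven elsewhere, with 3.09, 3.11 and 14.4 in Control, 18.4 in NASH 1 and 9.52 in NASH 3. Atp2a1, the calcium pump of fast fibres, gave 146 against 9.50 to 18.8. Myl11, the fast regulatory light chain, gave 93.0 against 2.05 to 5.03 with X00975_g_at, Tnni2, fast troponin I, 50.02 against 3.18 to 5.83, and the myosin heavy chain Myh2 59.97 against 1.85 to 12.3. A further myosin heavy chain probe set, S68736_at, carries the symbols of Myh1, Myh2 and Myh8 and gave 313 in NASH 2 against 4.00 to 9.63. Among the other genes of the list, the light chain Myl1 gave 69.5 against 17.5 to 21.5, the calcium buffer parvalbumin (Pvalb) 43.0 against 5.68 to 18.4 and calsequestrin (Casq1) 63.0 against 15.9 to 48.7. The fast myosin heavy chain Myh1 gave 90.4 against 64.4 to 112.8, and Myh4, named after its value was seen, had its lowest signal in NASH 2, at 7.62 against 11.8 to 24.2.

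Of the slow fibre list, 5 of 14 probe sets for 8 genes were among the 61 (35.7%), with a median of 1.33. Myl2, the slow and ventricular regulatory light chain, gave 46.0 in NASH 2 and 0.791 to 0.953 elsewhere with X07314cds_at, and 115 against 3.52 to 20.8 with X07314cds_g_at. Myh7, the slow myosin heavy chain, gave 65.7 against 0.730 to 2.67 with X15939_i_at, and 110.4 against 2.70 to 23.8 with X15939_f_at. Myl3, a slow light chain, gave 124 against 11.8 to 29.0. Slow troponin I (Tnni1) gave 45.9 against 5.67 to 21.6, below the rule, and the slow myosin-binding protein Mybpc1 gave 57.9 against 6.69 to 25.3. Atp2a2, the calcium pump of slow fibres, heart and many other cells, had 4 probe sets that differed by -0.098 to 0.35 from the mean of the other arrays. AA799276_at gave 138.9 in NASH 2 against 127 to 166. The cardiac and slow calsequestrin Casq2 gave 25.1 against 9.76 to 26.2. The probe sets of Myh and Myl genes may share sequence with related genes, and 18 of the 61 carry a suffix (_s, _f or _i) that marks this possibility or an incomplete probe set.

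Of the 22 probe sets for 12 measured heart muscle genes, 0 were among the 61 and 4 had their highest signal in NASH 2, and the list median was -0.15. Genes that heart shares with the other tissues, such as Myl2 and Cox8b, were counted in other lists, so the 0 does not cover them. Cardiac troponin I (Tnni3) gave 18.5 in NASH 2 against 12.8 to 30.8 with its brighter probe set, and the atrial light chain Myl7 15.7 against 12.7 to 17.8 with its g probe set. The Myh6 probe sets rc_AA891522_f_at and rc_AI103920_f_at gave 16.7 and 15.8 against at most 2.82 and 3.38, were named after their values were seen, and carry the suffix for sequence shared within a gene family. Genes of muscle excitation and the neuromuscular junction, such as the acetylcholine receptor subunit Chrng (60.7 against 55.3 to 68.3) and the sodium channel Scn4a (43.2 against 32.8 to 45.96 with its brightest probe set), gave 0 of 18 probe sets among the 61 and a median of 0.021. The muscle regulatory factors Myod1 (14.9 against 3.96 to 16.6) and Myf6 (12.2 against 1.47 to 18.9) lay inside the range of the other arrays, and 0 of 7 probe sets of their list were among the 61.

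Energy genes of muscle were high in NASH 2 for 8 of 26 probe sets (30.8%), with a list median of 1.35. Ckm, the muscle creatine kinase that rebuilds ATP from creatine phosphate, gave 491 in NASH 2, and 22.2, 48.4 and 15.6 in Control, 20.1 in NASH 1 and 27.5 in NASH 3. Ckmt2, its mitochondrial partner, gave 24.2 against 0.639 to 1.71 with 1 probe set and 54.0 against 0.870 to 9.75 with the other. Aldoa, the aldolase of muscle glycolysis, gave 577 against 49.4 to 85.0. Pygm, the muscle glycogen phosphorylase, gave 42.0 against 4.48 to 8.36, and Slc25a4, the muscle ADP/ATP carrier, 192 against 22.7 to 41.4. Hk2, a hexokinase of muscle and fat, gave 51.4 against 1.24 to 2.20 with 1 probe set, while its other probe set gave 59.6 against 41.9 to 50.2. Cox6a2, the muscle isoform of cytochrome c oxidase subunit 6a, gave 61.5 against 6.47 to 13.1. Of the brightest other genes of this list, the lactate dehydrogenase Ldhb gave 68.8 against 7.57 to 20.2 with U07181_g_at, the phosphorylase kinase subunit Phkg1 gave 38.6 against 35.3 to 80.8 with X07320_at, and the pyruvate dehydrogenase kinase Pdk4 gave 32.8 against 3.08 to 66.1.

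**Figure D2:**
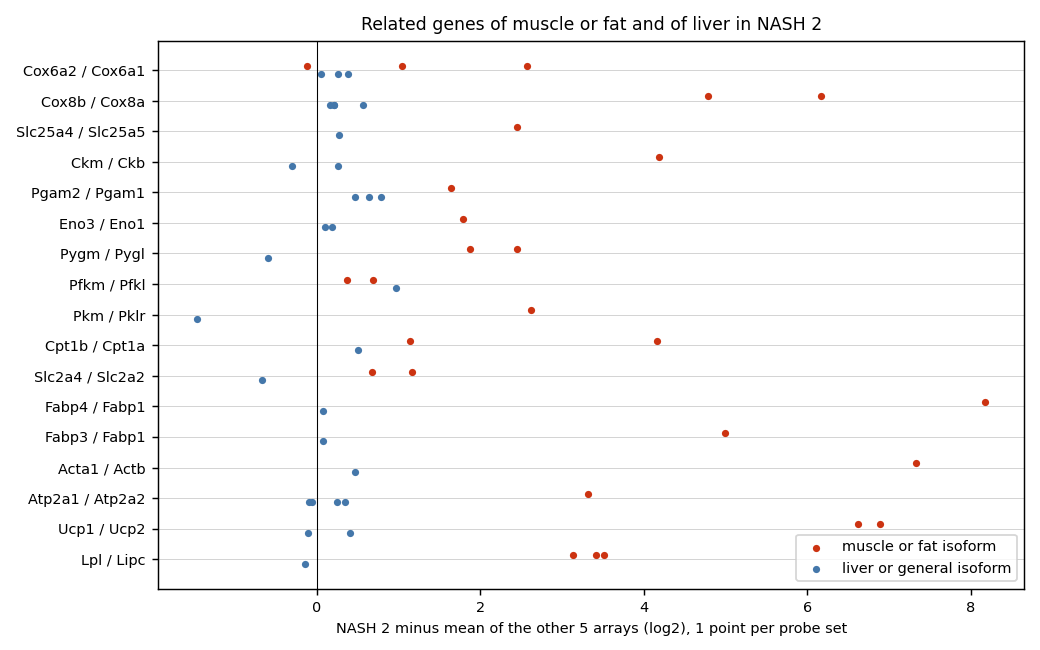
Difference between NASH 2 and the mean of the other 5 arrays in log2 units (x axis), 1 point per probe set, for 17 pairs of related genes (rows), with the muscle or fat gene in red and the liver or general gene in blue. In 15 pairs every red point lies to the right of every blue point, and the blue points lie between -1.46 and 0.97. All red genes but Slc2a4, Eno3, Pgam2 and Pfkm had a probe set chosen for its height in NASH 2.

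Muscle and fat genes were set beside relatives that hepatocytes or most cells use. Of 21 pairs listed, 17 had both genes on the array. In 15, every probe set of the muscle or fat gene had a larger NASH 2 difference than every probe set of its relative. Most of these muscle and fat genes had a probe set chosen by the rule for its height in NASH 2. The larger difference was therefore largely set in advance, and the count carries no test. Only Slc2a4, Eno3, Pgam2 and Pfkm had no chosen probe set. Slc2a4 differed by 0.68 to 1.16 (Slc2a2 by -0.67), Eno3 by 1.79 (Eno1 by 0.11 to 0.19) and Pgam2 by 1.65 (Pgam1 by 0.47 to 0.79). Pfkm did not exceed its relative. Cox8b differed by 4.79 and 6.16 log2 units from the mean of the other arrays, and Cox8a, the form in liver, by 0.16 to 0.57. Fabp4 differed by 8.17 and Fabp3 by 4.99, and the liver form Fabp1 by 0.075. Ucp1 differed by 6.62 and 6.89, and Ucp2, an uncoupling protein of many tissues, by -0.11 and 0.41. Ckm differed by 4.19 and Ckb, the creatine kinase of brain, by -0.30 and 0.26.

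The exceptions were Pfkm, which differed by 0.37 and 0.69 where the liver form Pfkl differed by 0.97, and Cox6a2, of which 1 of 3 probe sets (X72758mRNA_at) differed by -0.12. The liver forms Pklr and Slc2a2 were lower in NASH 2 than the mean of the other arrays, by -1.46 and -0.67. For Pklr the signal was 25.1 in NASH 2, 26.3 in NASH 3 and 46.0 in NASH 1, against 68.8 to 182 in Control, so that NASH 2 was close to NASH 3. Pkm, the pyruvate kinase of muscle, fat and most other tissues, was among the 61 with 319 in NASH 2 against 32.4 to 69.0.

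Probe sets outside these lists held genes of connective tissue and immunoglobulin. Dcn, decorin, a proteoglycan that binds collagen, gave 199 in NASH 2, 32.7, 37.6 and 32.4 in Control, 47.2 in NASH 1 and 21.4 in NASH 3. Lgals1, galectin-1, gave 316 in NASH 2 against 9.10 to 22.3. Ighvl1, an immunoglobulin heavy chain gene, gave 112 against 8.44 to 10.7, and M18529cds_f_at, annotated to several immunoglobulin kappa genes, gave 322 against 28.9 to 78.0. Grifin, a galectin-related gene known from the lens, gave 234 against 1.71 to 6.09. The heat shock protein Cryab, abundant in muscle, gave 83.1 against 9.85 to 18.6. S100b, a calcium-binding protein of Schwann cells and fat cells, gave 30.4 against 2.31 to 3.45, but 4.65 against 5.19 to 10.1 with its other probe set. The plasma glutathione peroxidase Gpx3 gave 29.3 against 1.87 to 4.36 and the organic cation transporter Slc22a3 27.8 against 1.31 to 4.99. Among the 12 unnamed probe sets, M12919mRNA#2_g_at was the brightest at 1272 in NASH 2 against 191 to 306, and rc_AI177026_at had 65.4 against 0.910 to 1.56. The dimmest of the unnamed, S56464mRNA_at, gave 40.2 against 2.49 to 3.98. AF036548_g_at, annotated to Rgcc and Rgccl1, gave 42.7 against 1.02 to 3.61.

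**Figure D3:**
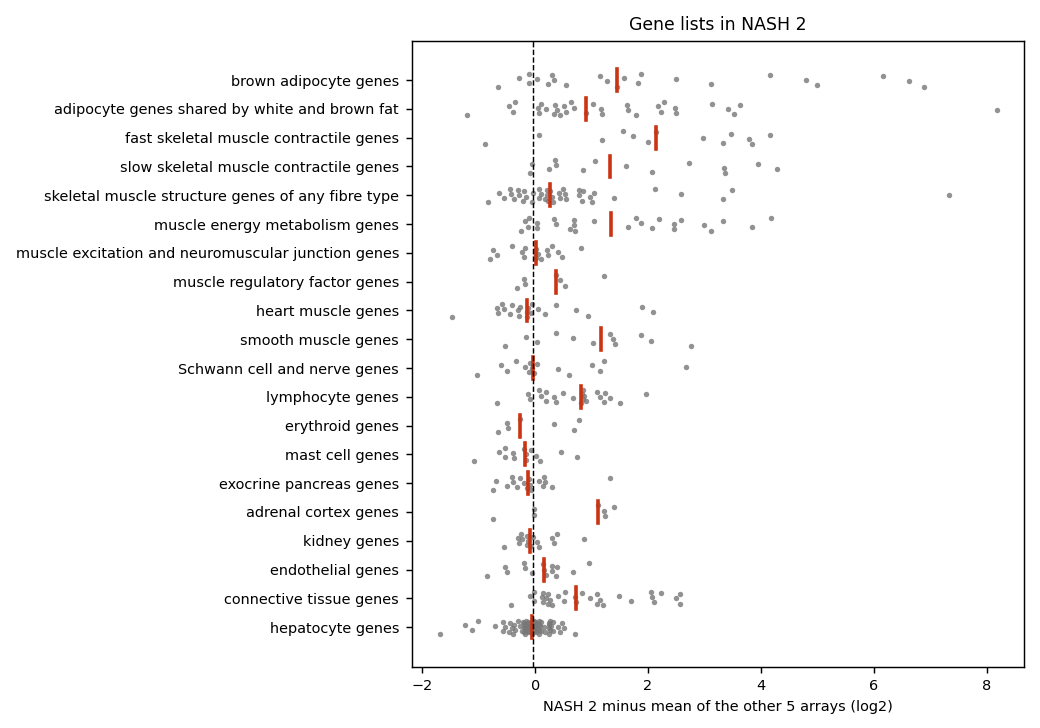
Difference between NASH 2 and the mean of the other 5 arrays in log2 units (x axis) for each probe set (grey points) of 20 gene lists (rows), with the list median in red and the median of all probe sets as a dashed line at -0.032. The list medians of fast muscle (2.15), brown adipocyte (1.45), muscle energy (1.35) and slow muscle genes (1.33) lie farthest to the right.

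Lists for other tissues showed which else moved with these genes, and their part in the result was not tested. Smooth muscle genes had a median of 1.17 and 8 of 12 probe sets highest in NASH 2, with a summed signal of 316 against 128 to 244 in Control and 88.5 to 185 in NASH 1 and NASH 3. The defining smooth muscle myosin Myh11 had 1 of 3 probe sets highest in NASH 2 (38.7 against 14.8 to 23.2). Connective tissue genes had a median of 0.72 and 19 of 32 highest in NASH 2 (summed signal 7388 against 3688 to 5825 in Control and 4177 to 4608 in NASH 1 and NASH 3). The collagen Col1a1 gave 302 against 35.6 to 145 with its brightest probe set.

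Lymphocyte genes had a median of 0.82, with 16 of 24 probe sets highest in NASH 2 and none among the 61. Their summed signal was 755 in NASH 2, 388 to 399 in Control and 443 to 487 in NASH 1 and NASH 3. Coro1a, an actin-binding protein of leukocytes, gave 74.8 in NASH 2 against 7.32 to 31.7, and the T cell genes Cd3d and Cd2 gave 6.01 and 3.84, near the floor. These 3 genes were named after their values were seen, and the brightest of the list, the T cell kinase Lck, gave 113.8 against 43.5 to 79.5. The adrenal cortex list, with 7 probe sets, had a median of 1.12 but a summed signal of 149.6 in NASH 2, inside the 118 to 189 of NASH 1 and NASH 3. Erythroid genes had a median of -0.27 with 2 of 7 highest in NASH 2, and a summed signal of 5394 in NASH 2 against 3050 to 3871 in the other arrays. Exocrine pancreas (-0.13), kidney (-0.098), mast cell (-0.18), endothelial (0.15), Schwann cell and nerve (-0.038) and hepatocyte genes (-0.051) had medians close to that of all probe sets. Scaling the arrays to a common trimmed mean moved the median of all probe sets to 0.084 and turned the sign of the pancreas, kidney and Schwann cell medians, the last also without scaling.

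Other probe sets of the same genes gave smaller differences, described here from the same arrays. The 39 genes had 16 further probe sets, spread over 13 genes, that were not among the 61. Of these, 14 had their highest signal in NASH 2 (15.6% of all probe sets did), 8 of them by at least 1 log2 unit, and their median distance to the next array was 1.08. For Dcn all 3 further probe sets were highest in NASH 2, at 168, 69.4 and 78.4. The exceptions were S100b and a Cox6a2 probe set near the floor (1.29 against 1.13 to 2.26).

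The rule ends in a dense range of values. Just inside it were Myl3, M12822cds_f_at and M28671_at, 2.02, 2.01 and 2.01 above the next array. Just outside were M18528cds_f_at, Aqp7 and Ucp3, at 1.98, 1.96 and 1.94. Raising the threshold to 3 left 25 probe sets and lowering it to 1 gave 164.

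Whether the same genes followed the diet was asked in the 5 arrays other than NASH 2, as a difference between NASH 1 and NASH 3 and the 3 Control arrays. Over all 61 probe sets the median difference was 0.064 log2 units, with 35 higher in NASH, where all probe sets had a median of -0.024 and 47.0% higher. The differences ran from -0.83 to 1.42, and 54 of the 61 lay between the 5th and 95th percentiles of all probe sets (-0.71 and 0.80). NASH 1 and NASH 3 both lay above every Control array for 8 of the 61 (10.2% of all probe sets) and both below for 4 (12% of all). The next highest array after NASH 2 was Control 2 for 19 probe sets, NASH 3 for 18, Control 3 for 11, NASH 1 for 7 and Control 1 for 6.

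**Figure D4:**
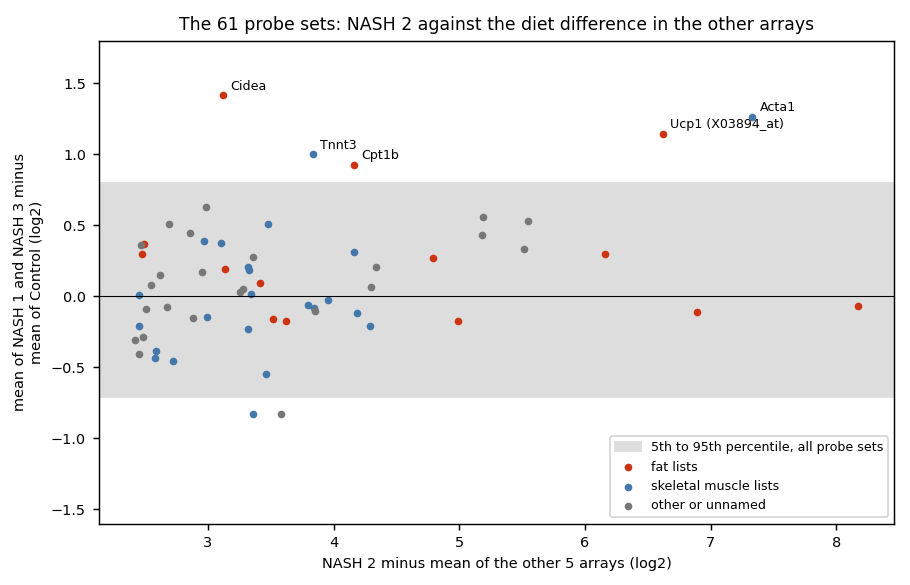
Each of the 61 probe sets by its difference between NASH 2 and the mean of the other 5 arrays (x axis, log2) and by the mean of NASH 1 and NASH 3 minus the mean of the 3 Control arrays (y axis, log2). The grey band is the 5th to 95th percentile of all probe sets on the y axis, -0.71 to 0.80, and 54 of the 61 points lie inside it.

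With limma over all probe sets above an intensity filter, none of the 20 of the 61 that passed the filter without NASH 2 was called at a Benjamini-Hochberg adjusted p under 0.05. Of all 5244 probe sets tested, 17 (0.324%) were called. At an unadjusted p under 0.05 there was 1 of the 20, Cidea, and 298 of all (5.68%). Cidea was 1.42 ± 0.37 (SE) higher in NASH 1 and NASH 3 (mean log2 signal 6.31) than in Control (4.90), with both NASH arrays above the 3 Control arrays and a limma adjusted p of 0.466 (0.116 to 1.00 over the alternatives). Acta1 (1.26), Ucp1 with X03894_at (1.15), Tnnt3 (1.00) and Cpt1b (0.93) followed in size but lay below the filter. For Acta1 and Cpt1b NASH 3 was the higher of the NASH arrays and gave 25.9 and 21.1 against 6.503 and 3.57 in NASH 1. The second Ucp1 probe set had a difference of -0.11, of the opposite sign.

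With NASH 2 included, 32 of the 61 passed the filter, some only through NASH 2. In that limma fit of 6 arrays 0 of the 32 were called (1 at an unadjusted p under 0.05), and 7 of all 5244 (0.133%) were. The fit contains the values that chose the 61, so nothing is read from these counts.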

How the data were processed

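Liver RNA of 6 samples was hybridised to 6 arrays. The authors deposited linear MAS5 intensities for each probe set, as the submitters' processing notes name the tool, with no version. Its scaling target is not stated there. Trimmed means (2%) of the deposited intensities lay between 73.6 and 117. No counts or detection calls were used, and the number of arrays limits the precision.

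The 8799 probe sets were quantile normalized, 2.21 (the 10th percentile of the deposited values) was added, log2 was taken and 59 control probe sets were left out. "Normalized signal" is the quantile-normalized value without the offset. Symbols came from the platform annotation: 7006 probe sets had 1, 308 several and 1426 none. Promoters came from RefSeq (GRCr8).

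NASH and Control were compared with limma 3.58.1 (lmFit, eBayes with intensity trend) on probe sets with a mean above the 40th percentile over the arrays fitted, with all 6 arrays and without NASH 2. On simulated data with 5244 probe sets it called 92.9% of 4-fold shifts without NASH 2 and 92.4% with all arrays. The simulated noise was normal and independent, with the moderated variances of the fit as true variances and shifts planted in many probe sets. Real data differ in this, so these shares do not tell how many 4-fold differences the fit would find here. Values per array were given for up to 6 of the 61 per list and up to 10 outside the lists with the widest separation, for pairs of related genes and at the threshold, and ranges for others. Of genes not among the 61, the rule allowed up to 4 per list with the highest mean signal, not all of which are named, and others were chosen after their values were seen. The rule for the 61 probe sets and the gene lists were chosen with earlier results of these data known. Alternatives covered scaling, offset, filter, threshold, variance trend, blocks and each array left out.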

Additional observations from a re-analysis of the deposited data

How the results depend on the processing

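The number of probe sets high in NASH 2 was 59 without scaling (55 of them among the 61), 59 with trimmed mean scaling (56 shared), 44 with the offset at the 25th percentile (6.06) and 67 with an offset of 1. With a threshold of 1 it was 164, and with 3 it was 25. Of them, 39 belonged to a list, 71 with a threshold of 1 and 16 with 3. Of 244 recomputed distances of the 61 to the next array, under other scalings and offsets chosen after seeing the data, 53 moved by more than the spread among the other arrays and the lowest was 1.62; the rule itself makes a change of sign unlikely. Of the 61, those that passed the filter of each limma setting were tested, which was all 61 with no filter, and 0 of those tested were called, in settings some of which called no probe set at all.

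Calls over all probe sets varied. With 6 arrays there were 7, with 14 without scaling (8 higher and 6 lower, against 5 and 2), 0 without a filter (633 at an unadjusted p under 0.05), 3 without an intensity trend, 3 with the wash record as a block, and 0 to 17 with 1 array left out (0 without Control 1, Control 3 or NASH 3, 17 without NASH 2). Without NASH 2 there were 17, with 43 without scaling (32 higher and 11 lower, against 16 and 1), 11 without a filter, 3 without a trend, and 0 to 16 with a further array left out (0 without Control 1, NASH 1 or NASH 3). The wash record block, the list counts and Cidea's alternatives were chosen after seeing the data.

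The median difference of the 20 tested probe sets between NASH 1 and NASH 3 and Control was 0.17. The probe sets tested changed with the setting. The median was -0.0757 without scaling, where all probe sets had a median of -0.22, and 0.0906 with trimmed mean scaling. With no filter, over all 61, it was 0.0639. With 1 array left out it was 0.0793 (without Control 3, 20 tested) to 0.25 (without NASH 1, 21 tested). Over all 61 it was 0.0685 among arrays with a filled wash record and 0.0559 among those with a blank one. Same-numbered arrays did not deviate together (correlations 0.017, -0.0051 and 0.057), so the numbers were not taken as pairs. With the replicate number as a block, 1 probe set was called with 6 arrays and 26 without NASH 2.

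These signals have no detection calls. Many of the 61 lie near the floor outside NASH 2, where fold depends on the offset. A single array holds the pattern.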
